A study of Mus musculus with 2 samples.

Results

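The genes described here encode the proteins of the mitochondrial ribosome in mouse kidney. They were chosen by name, as the protein-coding genes of the count table whose symbol starts with Mrpl or Mrps followed by a digit, and 78 of 45777 genes met that rule. Whole kidneys were profiled by bulk RNA sequencing in 1 library from CKO mice, in which Inmt, a gene for an amine methyltransferase, was conditionally deleted in the proximal tubule, and in 1 library from control mice. Both groups ate standard chow and were untreated. The labels used here give no strain, sex, age, Cre line or number of mice per library, and do not say whether the controls carry a floxed allele. Inmt itself had 5283 reads in the CKO library, against 17678 in the control library, a level 4.73-fold lower (95% counting interval 4.59 to 4.88) after scaling, which goes with the labels.

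Mitochondria keep a small genome of their own and translate its messages on a dedicated ribosome. The RNA of that ribosome comes from the mitochondrial genome, whereas every one of its proteins is encoded in the nucleus, made in the cytosol and imported. Some of these proteins descend from bacterial ribosomal proteins and others were added during the evolution of mitochondria. The ribosome makes only membrane subunits of the respiratory chain and the ATP synthase, and the proximal tubule is among the tissues richest in mitochondria because it reabsorbs solute by aerobic metabolism.

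Nearly all of these genes lay below the typical expressed gene in the comparison of the CKO with the control library, and none (0 of 78) reached a 2-fold difference in either direction. Levels are given as CPM, a read count relative to library size after TMM scaling (a factor per library that sets the bulk of genes level). Ratios set CKO over control, as log2 after adding 0.5 to both CPM values. Every member passed the minimum of 1 CPM in either library that defines an expressed gene. The median log2 ratio of the 78 genes was -0.30, that of all 15129 expressed genes was 0.01, and 72 of the 78 lay below that median, which by construction has 50% of expressed genes below it. Of all expressed genes, 10.3% passed 2-fold upward in the CKO library and 1.66% downward. The expressed genes were not matched to the members by level. In the control library the median member had 32.7 CPM and the median expressed gene 18.9 CPM. Across all expressed genes the log2 ratio had a Spearman correlation of -0.53 with control CPM. Each group is a single library, so no difference could be tested against replicates, and the intervals given cover counting error only.

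The sign of a ratio against 0 depended on how the libraries were scaled, whereas the position of their median below that of other genes did not. TMM put the median ratio of the members at -0.30, while plain total counts put it at 0.02 and the authors' TPM values at 0.11. The median of all expressed genes moved with it, from 0.01 with TMM to 0.32 with total counts and 0.40 with TPM. Read against that median the members lay at -0.30, -0.30 and -0.29 on the log2 scale under these scalings. Restricting the comparison to genes of at least 10 CPM put them at -0.22. At that minimum of 10 CPM, 70 of the 78 lay below the median of expressed genes. Across 10 ways of computing the ratio that kept the minimum of 1, 71 members stayed below the median every time. In these 10 ways 5 members stayed above it, and Mrps25 and Mrpl48 changed side.

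**Figure D1:**
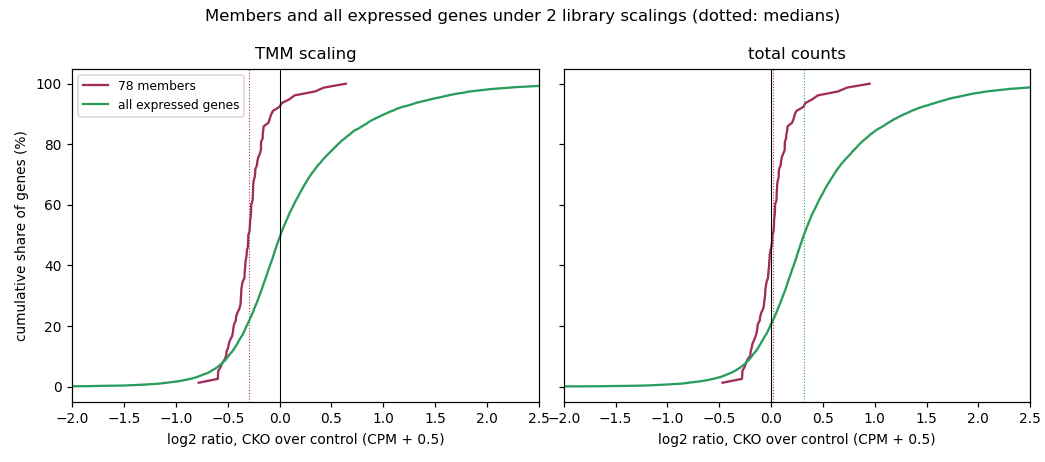
Cumulative share of genes (y axis, %) by log2 ratio of CKO over control (x axis), for the 78 members and for all expressed genes, with TMM scaling on the left and total counts on the right. The members' median is -0.30 against 0.01 with TMM and 0.02 against 0.32 with total counts, so the sign against 0 changes with the scaling while the medians stay -0.30 apart.

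The middle 50% of the members' log2 ratios spanned 0.18. It spanned 0.67 over all expressed genes, a set that includes genes with far fewer reads, and 0.15 over both the nuclear respiratory chain genes and the cytosolic ribosomal protein genes. At a smaller limit of 0.32 on the log2 scale (a ratio of 5 to 4), 33 members (42.3%) were lower in the CKO library, against 19.8% of expressed genes, and 3 (3.85%) were higher, against 29.1% of expressed genes. With total counts 1 member (1.28%) was lower, against 5.81% of expressed genes, and 6 (7.69%) were higher, against 49.5%. With TPM 1 member (1.28%) was lower, against 4.96%, and 9 (11.5%) were higher, against 58.1%. The share of lower members was thus above that of expressed genes with TMM and below it with total counts and TPM, while the share of higher members was below it under all 3 scalings. With TMM the counting interval of the ratio lay wholly below 1 for 67 members (85.9%) and wholly above 1 for 3 (3.85%). The shares of all expressed genes were 34.7% and 36.8%. Such intervals move with the scaling, and these counts were not made with total counts or TPM.

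**Figure D2:**
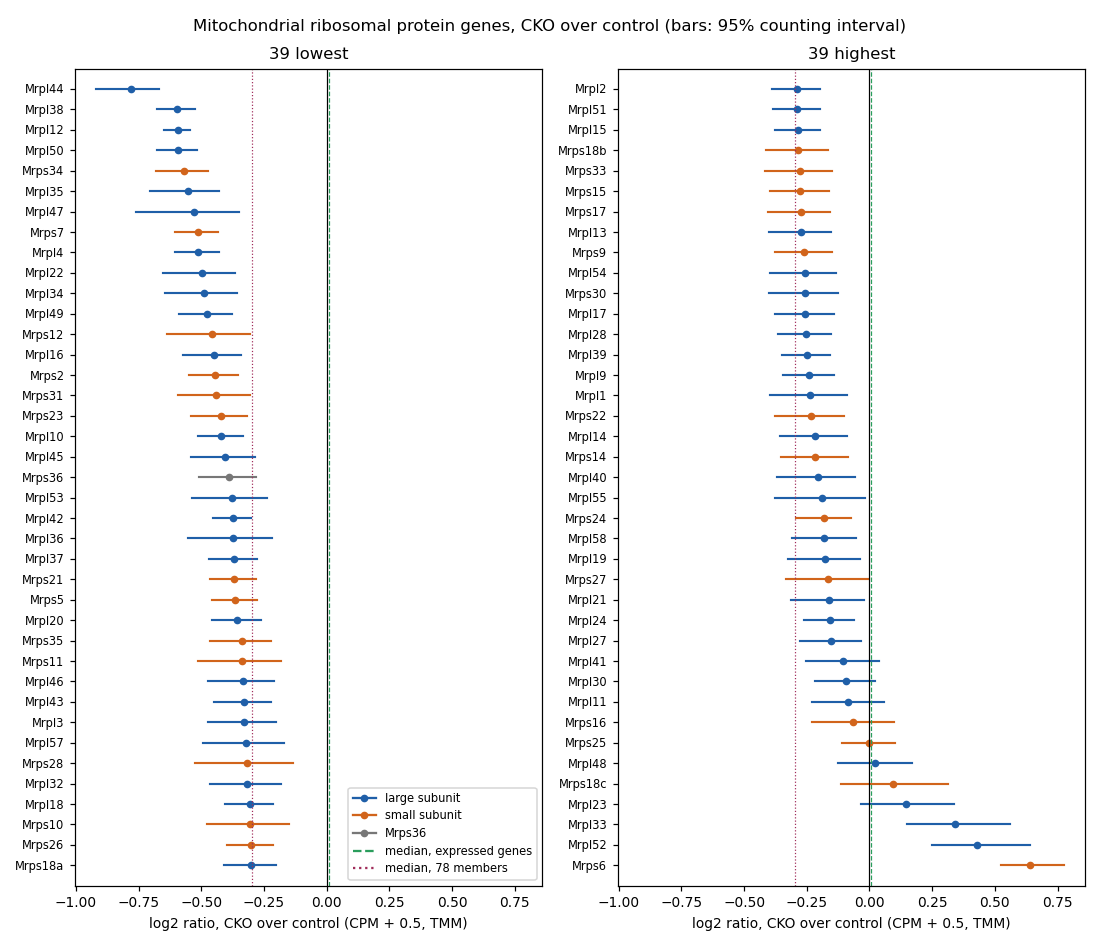
Log2 ratio of CKO over control for each of the 78 genes with TMM scaling, ranked from lowest to highest, with bars for the 95% counting interval. Points run from -0.78 for Mrpl44 to 0.64 for Mrps6, and 72 of 78 lie left of the median of expressed genes at 0.01 (dashed). With total counts the points shift to the right and 35 of 78 stay below 0, where the median of expressed genes is 0.32.

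Depth was ample for these genes. The CKO library held 38136616 counted reads and the control library 33618076, of which the members took 0.269% (exact 95% interval 0.268 to 0.271) in the CKO library and 0.272% (0.271 to 0.274) in the control library. Single members had 385 to 5742 reads in the CKO library and 304 to 6140 in the control library. The upper bound of a member's ratio interval was 1.07 to 1.34 times its lower bound. Differences between animals are not covered by these intervals.

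Markers of kidney cell types differed between the libraries too. All 9 proximal tubule markers were present, summing to 10352 CPM in the CKO library and 16840 CPM in the control library. Of the 9, 8 had a log2 ratio below 0 (range -1.16 to 0.26), where 49.3% of expressed genes did. The 6 macrophage markers summed to 267 CPM in the CKO library, against 66.8 CPM in the control library, the 4 fibroblast markers to 501 against 164 CPM, and the 5 tubular injury markers to 459 against 36.0 CPM. Sums were higher in the CKO library for markers of the thick ascending limb (3016 against 2088 CPM), distal convoluted tubule (315 against 263 CPM) and collecting duct (387 against 298 CPM). They were slightly lower for podocytes (336 against 347 CPM) and endothelium (270 against 304 CPM). All marker sums use TMM scaling, and the direction of such small differences was not checked under other scalings. The 4 T cell markers summed to 6.13 CPM in the CKO library and 1.23 CPM in the control library, and the 3 neutrophil markers to 4.70 and 0.897 CPM with S100a8 at 0 in both libraries. In bulk kidney RNA, fewer cells of a type and less RNA per cell cannot be told apart, and the part of cell composition in the members' ratios was not tested.

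Levels between genes are compared per length, in the authors' TPM values. Members ranged from 9.40 TPM (Mrpl19) to 310 TPM (Mrpl12) in the CKO library and from 7.97 to 350 TPM for the same genes in the control library. The median member was at 55.6 TPM in the CKO library and 47.9 TPM in the control library, above the median expressed gene at 15.2 and 10.6 TPM. The order of the genes was nearly the same in both libraries, with a Spearman correlation of 0.95 across the 78 genes, which share the same pair of libraries.

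The 6 most abundant transcripts by the mean TPM of both libraries belonged to both subunits. Mrpl12 encodes bL12m, the flexible stalk protein that recruits translation factors, and stood at 310 TPM in the CKO library against 350 in the control library. Mrpl42 (mL42), a protein added in mitochondria, had 228 TPM in the CKO library against 221 in the control library. Mrps21 (bS21m), a small protein of the small subunit, had 214 against 207 TPM. Mrpl38, Mrps26 and Mrpl18 followed at 99.4 against 112, 110 against 101 and 106 against 98.3 TPM. In the CKO library alone Mrps6, at 112 TPM, also stood above these 3. By the same mean the 6 least abundant were Mrpl19, Mrpl17, Mrpl48, Mrpl1, Mrpl35 and Mrps25, all between 9.40 and 15.2 TPM in the CKO library and between 7.97 and 13.5 TPM in the control library. From the least to the most abundant member, TPM values differed 32.9-fold in the CKO library and 43.9-fold in the control library.

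**Figure D3:**
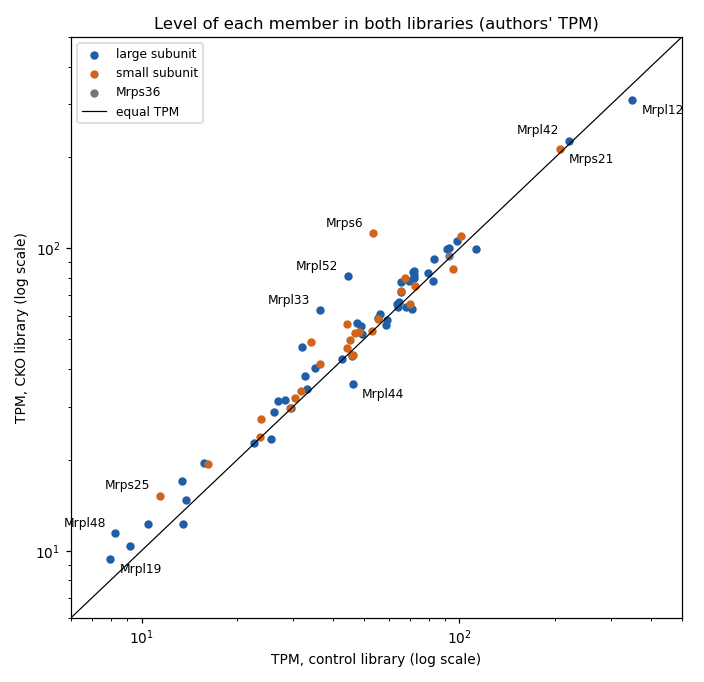
TPM of each member in the CKO library (y axis) against the control library (x axis), both on log scales, with the line of equal TPM. Mrpl12 is the most abundant in both libraries, at 310 and 350 TPM. On this scale 62 of 78 members lie on or above the line and 16 below it. Mrps6, Mrpl52 and Mrpl33 stand above the line and Mrpl44 below it.

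Mrpl44 had the lowest ratio of all members. It encodes mL44, a protein with an RNase III fold on the large subunit, and human MRPL44 variants cause an infantile cardiomyopathy. It had 960 reads in the CKO library against 1177 in the control library, or 22.5 CPM against 39.1 CPM, although the CKO library is the deeper. That is 1.73-fold lower (1.59 to 1.89), a log2 ratio of -0.78, and it stayed below 0 under all 10 settings, with its smallest distance from 0 at -0.37 in TPM. The gap to the next member, 0.18 on the log2 scale, was exceeded only by the gaps below Mrps6 (0.21) and below Mrpl33 (0.20) at the other end of the ranking. Mrpl44 lies on chromosome 1 at 79776018 to 79781445 (GRCm38) and shares 126 bp of exon with Wdfy1 on the other strand. Wdfy1, which encodes an endosomal phosphoinositide-binding protein, had 4189 reads against 4146, a log2 ratio of -0.48.

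Another 15 members, 16 with Mrpl44, had a log2 ratio below 0 under all 10 settings. Mrpl38 (mL38, in the central protuberance) had 62.3 CPM in the CKO library against 94.4 CPM in the control library, 1.52-fold lower (1.44 to 1.60). Mrpl12 had 135 against 204 CPM, 1.51-fold lower (1.46 to 1.57), the most precise ratio of the set. Mrpl50 (mL50) had 58.9 against 89.0 CPM, also 1.51-fold lower (1.43 to 1.60). Across the 78 genes the log2 ratio had a Spearman correlation of -0.46 with control CPM, against -0.53 across all 15129 expressed genes; the control value enters both measures.

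The remaining members of the lowest 10 came from both subunits. Mrps34 (mS34), whose human counterpart is mutated in a form of Leigh syndrome, had 34.8 CPM in the CKO library against 51.9 CPM in the control library, but it shares 763 bp of exon with Nme3 on the same strand, so its share of reads is uncertain. Mrpl35 (bL35m) had 20.1 against 29.7 CPM, Mrpl47 (uL29m) 9.04 against 13.3 CPM and Mrps7 (uS7m), a head protein of the small subunit, 50.6 against 72.5 CPM. Mrpl4 (uL4m) had 48.5 against 69.4 CPM and Mrpl22 (uL22m) 18.6 against 26.5 CPM. Their log2 ratios ran from -0.57 for Mrps34 to -0.50 for Mrpl22. The other 6 of the 16 were Mrpl34, Mrpl49, Mrps12, Mrpl16, Mrps2 and Mrpl10, and for 56 members the sign against 0 changed with the setting.

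At the other end, 6 members had a log2 ratio above 0 under all 10 settings, namely Mrps6, Mrpl52, Mrpl33, Mrpl23, Mrps18c and Mrpl48. Mrps6 stood furthest. It encodes bS6m, whose bacterial counterpart pairs with protein S18 on the platform of the small subunit. It had 1654 reads in the CKO library against 746 in the control library, or 38.8 CPM against 24.8 CPM, 1.57-fold higher (1.44 to 1.71). Its log2 ratio of 0.64 became 1.07 with TPM, where it was the 1 member past 2-fold.

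The Mrps6 locus carries a second gene. Slc5a3 encodes the sodium-coupled myo-inositol transporter, an osmolyte carrier of the kidney, and its annotated transcripts share 159 bp of exon with Mrps6 on the same strand. Slc5a3 had 6010 reads in the CKO library against 3140 in the control library, or 141 CPM against 104 CPM, 1.35-fold higher (1.30 to 1.41). The promoter windows that RefSeq gives for these genes overlap on chromosome 16, beginning at 92058072 for Slc5a3 and 92058086 for Mrps6. How reads in the shared exon were assigned is not given in the sources used here, so the split between these genes is uncertain. The median ratio of the other 77 members was -0.30, as with Mrps6 included.

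Mrpl52 and Mrpl33 came next, with fewer reads. Mrpl52 (mL52) had 633 reads in the CKO library against 329 in the control library, or 14.9 against 10.9 CPM, a log2 ratio of 0.43 (ratio 1.36, 1.19 to 1.56). Mrpl33 (bL33m) had 550 against 304 reads, or 12.9 against 10.1 CPM, a log2 ratio of 0.34 (ratio 1.28, 1.11 to 1.48). Neither shares exons with another expressed gene. Together with Mrps18c they had the 3 lowest control read counts of all members. For Mrpl23 (uL23m, 609 against 388 reads), Mrps18c (465 against 307) and Mrpl48 (904 against 630), the TMM interval of the ratio included 1. Mrpl48 has a pseudogene row, Mrpl48-ps, with 249 reads in the CKO library and 232 in the control library. Mrpl23-ps1 had 33 and 12, so reads could have been split between these copies. Mrpl48 also shares 708 bp of exon with Rab6a on the other strand. Rab6a had 3807 reads in the CKO library against 3586 in the control library, a log2 ratio of -0.41. The highest 10 were completed by Mrps25, Mrps16 (bS16m, 728 against 539 reads, log2 ratio -0.06), Mrpl11 and Mrpl30 (uL30m, 1350 against 1021 reads, -0.10).

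The promoters of the 2 lowest and the 2 highest members with a RefSeq window (GRCm38.p6, from 250 bp before to 50 bp after the start) are given to show what the ends of the ranking look like. Capitals mark matches, on either strand, to NRF1 (GCGCA, any base, GCGC), ETS (CCGGAAG) or YY1 (AAGATGGC), the motifs of factors known to act on nuclear genes of mitochondria. Each window reads 5′ to 3′ in the direction of the gene. Mrpl44 (chr1:79775768-79776067, plus strand) and Mrpl12 (chr11:120484387-120484686, plus strand) hold 1 NRF1 match each, Mrpl52 (chr14:54426659-54426958, plus strand) holds 2 ETS matches, and Mrps6 (chr16:92058086-92058385, plus strand) holds none (0) of the 3 motifs.
Mrpl44: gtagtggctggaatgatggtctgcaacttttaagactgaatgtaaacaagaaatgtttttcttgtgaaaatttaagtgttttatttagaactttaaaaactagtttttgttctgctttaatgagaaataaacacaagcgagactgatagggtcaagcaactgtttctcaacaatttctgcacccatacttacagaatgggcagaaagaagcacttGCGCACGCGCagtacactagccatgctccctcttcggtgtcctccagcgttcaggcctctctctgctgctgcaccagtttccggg
Mrpl12: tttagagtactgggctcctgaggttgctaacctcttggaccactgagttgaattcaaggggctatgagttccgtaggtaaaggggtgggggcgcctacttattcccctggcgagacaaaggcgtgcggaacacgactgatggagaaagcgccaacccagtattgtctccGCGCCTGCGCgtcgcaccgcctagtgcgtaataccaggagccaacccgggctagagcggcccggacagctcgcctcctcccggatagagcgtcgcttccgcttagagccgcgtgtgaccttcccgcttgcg
Mrpl52: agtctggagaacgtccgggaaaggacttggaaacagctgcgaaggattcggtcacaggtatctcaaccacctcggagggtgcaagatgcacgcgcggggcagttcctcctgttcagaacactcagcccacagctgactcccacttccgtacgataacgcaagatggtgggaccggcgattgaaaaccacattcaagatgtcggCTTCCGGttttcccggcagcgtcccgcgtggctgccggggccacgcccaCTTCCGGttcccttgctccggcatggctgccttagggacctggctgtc
Mrps6: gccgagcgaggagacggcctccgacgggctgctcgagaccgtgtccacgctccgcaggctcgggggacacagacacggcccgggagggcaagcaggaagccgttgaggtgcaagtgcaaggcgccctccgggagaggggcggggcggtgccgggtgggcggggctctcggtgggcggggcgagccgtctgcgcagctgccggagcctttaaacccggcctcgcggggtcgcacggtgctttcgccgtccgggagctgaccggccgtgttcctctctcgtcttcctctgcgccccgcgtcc

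Windows were matched for 69 of the 78 members, and the first was used for the 3 genes with more than 1. An ETS match was found in 25 members, or 36.2%, against 17.3% of 10848 expressed protein-coding genes with a window. NRF1 matches were in 13 members, 18.8% against 9.93%, and YY1 matches in 12, 17.4% against 4.47%. At least 1 of these motifs was present in 42 members (60.9%, against 28.3%). Searched in the same way, the Sp1 motif GGGCGG was in 49.3% of members against 62.8%, the E-box CACGTG in 7.25% against 9.98%, and the estrogen-related receptor motif TCAAGGTCA in none (0 of 69) against 0.258%. Motifs were counted separately whether or not their matches overlapped.

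Median ratios with and without each motif were set side by side, with no test. Members with an NRF1 match had a median log2 ratio of -0.30, against -0.29 for members without one, and those with an ETS match had -0.29 against -0.30. Members with a YY1 match had -0.37, against -0.28 for those without. None of the windows was assayed for binding here.

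Both subunits showed the same median. The 51 members on the large subunit had a median log2 ratio of -0.29 (range -0.78 to 0.43), and the 26 on the small subunit had -0.29 (range -0.57 to 0.64). Of the large-subunit genes 47 of 51 and of the small-subunit genes 24 of 26 lay below the median of expressed genes. Proteins named after a bacterial counterpart (46 genes) had a median of -0.28 and those named as mitochondrial (31 genes) -0.30. These classes follow the uniform protein names, so the second holds Mrps18a and Mrps18b, although both descend from a bacterial protein. Symbols are not a full guide to subunits, since Mrps30 (mL65) and Mrps18a (mL66) are built into the large subunit, and they were counted there.

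For the stalk, which binds translation factors, 3 genes were grouped here. Mrpl12 is described above. Mrpl10 (uL10m), the protein that anchors the stalk, had 47.5 CPM in the CKO library against 63.8 CPM in the control library, a log2 ratio of -0.42. Mrpl11 (uL11m), at the base of the stalk, had 21.9 against 23.2 CPM, a log2 ratio of -0.08 with a TMM interval that included 1. All 3 of these genes lay below the median of expressed genes.

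Around the exit tunnel, through which the new protein leaves, the 5 genes grouped here had a median log2 ratio of -0.41. Mrpl22, Mrpl47 and Mrpl45 stood at -0.50, -0.53 and -0.41. Mrpl45 (mL45), which fixes the ribosome to the inner membrane, had 24.5 CPM in the CKO library against 32.7 CPM in the control library, although its TPM was level at 22.7 against 22.6. Mrpl24 (uL24m) stood at -0.16, with 43.6 against 48.7 CPM. Mrpl23, at 14.3 against 12.9 CPM and a log2 ratio of 0.15, was the gene of these 5 on the other side of the median of expressed genes.

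In the central protuberance, a part of the large subunit, the 7 genes grouped here had a median log2 ratio of -0.21. Apart from Mrpl38 at -0.60, they ran from -0.34 for Mrpl46 (mL46) over -0.31 for Mrpl18 (uL18m), -0.21 for Mrpl40 (mL40), -0.18 for Mrpl58 and -0.15 for Mrpl27 (bL27m) to 0.02 for Mrpl48 (mL48). Mrpl58 encodes mL62, also a peptidyl-tRNA hydrolase that can rescue stalled ribosomes, and had 26.6 CPM in the CKO library against 30.2 CPM in the control library. Mrpl46 had 23.8 against 30.2 CPM, and Mrpl40 had 17.7 against 20.5 CPM.

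The 3 Mrps18 paralogs, which descend from a single bacterial protein, sit at different places in the ribosome. Mrps18a had 38.5 CPM in the CKO library against 47.6 CPM in the control library (log2 ratio -0.30). Mrps18b (mS40) had 26.4 against 32.2 CPM (-0.28), and Mrps18c (bS18m), the one in the place of the bacterial protein, had 10.9 against 10.2 CPM (0.09). The counting intervals were 0.753 to 0.869, 0.750 to 0.893 and 0.925 to 1.24, so the interval of Mrps18c did not overlap those of the other paralogs. Mrps30, on the large subunit, had 22.3 against 26.7 CPM, a log2 ratio of -0.26.

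One member is not part of the ribosome. Mrps36 carries a ribosomal name, but its protein is a subunit of the 2-oxoglutarate dehydrogenase complex of the citric acid cycle. It had 29.9 CPM in the CKO library against 39.4 CPM in the control library, a log2 ratio of -0.39. The rule also leaves out 5 ribosomal proteins named differently. Gadd45gip1 (mL64) stood at -0.40, Ptcd3 (mS39), a pentatricopeptide RNA-binding protein, at -0.39, Aurkaip1 (mS38) at -0.24, Dap3 (mS29), a GTP-binding protein, at -0.20 and Chchd1 (mS37) at -0.11. With these 5 and without Mrps36 the complete set of 82 ribosomal proteins had a median of -0.29, and 76 of 82 lay below the median of expressed genes.

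Genes that build, serve and feed this ribosome were compared from lists of known factors, of which 2 of 94 symbols were not matched. List medians and counts are given with TMM scaling. The counts past the limit of 0.32 depend on the scaling and were not made under the others. Translation factors had the lowest median, -0.40 over 15 genes, with 9 lower past the limit of 0.32 and none (0) higher, where 19.8% of expressed genes were lower and 29.1% higher past it. Mtif3, an initiation factor, had 1178 reads in the CKO library against 1391 in the control library (log2 ratio -0.73), Gfm1, elongation factor G, had 4714 against 5257 (-0.65), and Taco1, a translational activator of cytochrome oxidase subunit I, had 1157 against 1231 (-0.58). Tsfm, an elongation factor, was at -0.16, Guf1, a back-translocation factor, at 0.08, and Mtrf1, a release factor, with 299 against 168 reads, at 0.31. With total counts Mtif3, Gfm1 and Taco1 were at -0.42, -0.34 and -0.27, and Tsfm, Guf1 and Mtrf1 at 0.15, 0.39 and 0.60.

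Assembly factors of the ribosome had a median of -0.18 over 26 genes with TMM. Of these 11 were lower past that limit and none (0) higher, against 19.8% and 29.1% of expressed genes. The rRNA methyltransferase gene Mrm3 had 397 reads in the CKO library against 448 in the control library (log2 ratio -0.65), and the GTPase genes Mtg2 and Noa1 had 652 against 716 (-0.62) and 646 against 656 (-0.51). Rcc1l, Ybey and Mettl17 were the highest at -0.01, 0.00 and 0.16. Mitochondrial tRNA synthetases and the related amidotransferase also had a median of -0.18, over 22 genes. Of these 9 were lower past the same limit, against 19.8% of expressed genes. Ears2 and Rars2, which charge tRNAs with glutamate and arginine, were at -0.84 and -0.59, and the amidotransferase gene Gatb at -0.78. Wars2 was at -0.01, Gars, which also serves the cytosol, at 0.01 and Qrsl1 at 0.03.

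Genes for copying and transcribing mitochondrial DNA had a median of -0.23 over 13 genes with TMM. Of these 5 were lower past the limit of 0.32, against 19.8% of expressed genes. The topoisomerase gene Top1mt, the helicase gene Twnk and the protease gene Lonp1 were each near -0.50, at -0.51, -0.50 and -0.50. Polg, the DNA polymerase, was at -0.03, its accessory subunit Polg2 at 0.19 and Mterf2 at 0.31. Nuclear regulators had a median of -0.03 over 11 genes. Past the limit 2 were lower, near the background of 19.8%, and 1 was higher, against 29.1% of expressed genes. The coactivator gene Ppargc1b was at -0.50, and the nuclear receptor genes Esrra, Ppara and Esrrg were at -0.39, -0.31 and 0.10. The coactivator gene Pprc1 was at 0.14. Myc, a growth-promoting transcription factor gene, had 662 reads in the CKO library against 166 in the control library, a log2 ratio of 1.42.

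**Figure D4:**
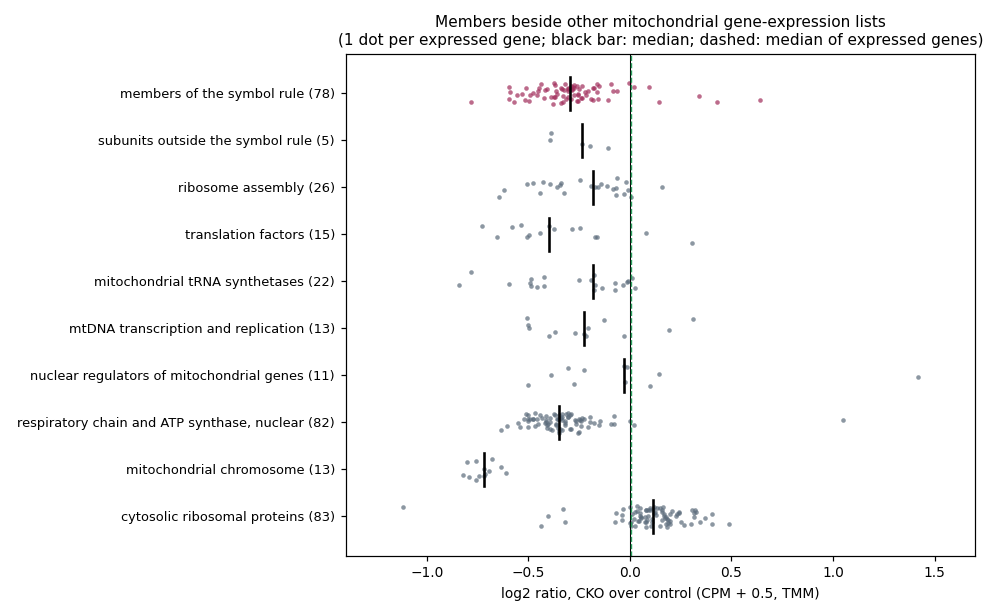
Log2 ratio of CKO over control (x axis, TMM scaling) for expressed genes of each list, with 1 dot per gene, a black bar at the list's median and a dashed line at the median of all expressed genes. Medians are -0.30 for the 78 members, -0.40 for translation factors, -0.35 for nuclear respiratory chain genes, -0.72 for the mitochondrial chromosome and 0.11 for cytosolic ribosomal proteins; with total counts all shift upward and the members' median is 0.02.

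Set beside other families, the members were near the nuclear genes of the respiratory chain and ATP synthase and apart from both the mitochondrial transcripts and the cytosolic ribosome. The 82 expressed nuclear subunit genes had a median log2 ratio of -0.35, the 13 protein-coding genes of the mitochondrial chromosome had -0.72 (range -0.82 to -0.61), and 83 expressed cytosolic ribosomal protein genes had 0.11. Below the median of expressed genes lay 80 of the 82 nuclear subunit genes and all 13 genes of the mitochondrial chromosome, against 72 of 78 members. Of the 83 cytosolic ribosomal genes 14 lay below it. A common scaling factor moves all of these medians together, and their distances were not tested.

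Many of these genes start next to another gene. For 28 of the 78 members (35.9%) another expressed protein-coding gene starts on the opposite strand within 1000 bp, against 1800 of 13257 expressed protein-coding genes (13.6%). Mrpl46 and Mrps11, a large-subunit and a small-subunit gene, are each other's partner, with log2 ratios of -0.34 and -0.34. They share 173 bp of exon on opposite strands. The other 26 partners had a median log2 ratio of -0.24 and ranged from -0.56 to 0.72. Of these 17 of 26 were below 0, as were 49.3% of expressed genes with TMM. The 28 members with a partner had a median of -0.31 and the 50 without one -0.28.

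Single pairs ran from nearly equal to opposite ratios, and those given here were chosen after their values were seen. Mrps12 (uS12m, part of the decoding centre) and Sars2, the mitochondrial seryl-tRNA synthetase, start 172 bp apart. Mrps12 had 620 reads in the CKO library against 608 in the control library (log2 ratio -0.46), and Sars2 had 514 against 493 (-0.42). Mrpl36 and the complex I gene Ndufs6 start 29 bp apart at -0.37 and -0.48, and Mrpl43 and Twnk start 779 bp apart at -0.33 and -0.50. Mrpl47 and the complex I gene Ndufb5 stood at -0.53 and -0.36. Pairs with partners of other functions were as close in some cases, such as Mrpl18 and the chaperonin gene Tcp1 at -0.31 and -0.32, or Mrpl32 and the proteasome gene Psma2 at -0.32 and -0.26. In others the ratios lay further apart. Mrpl49 starts 59 bp from Fau, which encodes a protein of the cytosolic ribosome, with 1437 against 1421 reads for Mrpl49 (-0.48) and 4728 against 3142 for Fau (0.09). Mrpl50 at -0.59 and the zinc finger gene Zfp189 at 0.52 start 83 bp apart, Mrpl51 at -0.29 and the condensin gene Ncapd2 at 0.58 start 100 bp apart, and Mrpl21 at -0.16 and the helicase gene Ighmbp2 at 0.72 start 116 bp apart. Some pairs share exon bases on opposite strands, with 616 bp for Mrpl47 and Ndufb5 and 507 bp for Mrpl43 and Twnk. Shared stretches were 141 bp for Mrpl18 and Tcp1, 117 bp for Mrpl21 and Ighmbp2 and 30 bp for Mrpl36 and Ndufs6. Whether the counting used strand is not given, so reads may have been shared or dropped between such partners.

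**Figure D5:**
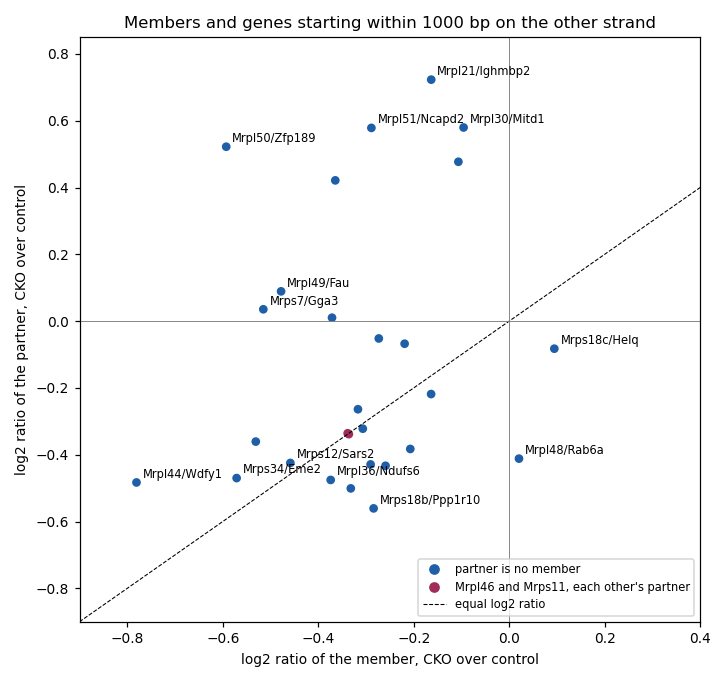
Log2 ratio of the partner gene (y axis) against that of the member (x axis), CKO over control with TMM scaling, for the 28 members with an expressed gene starting within 1000 bp on the other strand; the dashed line marks equal ratios. Mrps12/Sars2 lies near the line, and Mrpl50/Zfp189, Mrpl51/Ncapd2 and Mrpl21/Ighmbp2 lie far above it; with total counts all points move up and to the right.

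Shared exons limit some of these values. In the annotation 19 members overlap exons of another expressed gene, 3 of them (Mrps24, Mrps34 and Mrps6) on the same strand and 17 on the opposite strand. The library kit preserved strand, but the labels do not say whether the counting used it. The largest overlap was that of Mrps25, 4590 bp with Nr2c2, a nuclear receptor gene that had 2186 reads in the CKO library against 1431 in the control library, and Mrps25 had 1749 against 1240 (41.1 against 41.2 CPM). Among the 59 members without such an overlap the median log2 ratio was -0.29, and 55 of 59 lay below the median of expressed genes. Transcript length had little relation to the ratio, with a Spearman correlation of 0.13 between log2 ratio and merged exon length across the 78 members and 0.08 across 14415 expressed genes.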

How the data were processed

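RNA from whole kidneys was sequenced as 1 CKO and 1 control library with a stranded mRNA kit, per the labels' protocols. Per the submitters' processing notes the build was mm10; the tools listed there, without roles, are Cufflinks 2.2.1, edgeR, DESeq2, FastQC, HTSeq and STAR 2.7.3a. Read counts per gene, FPKM and TPM values were deposited by the authors in a single table, per the file headers. A second deposited table holds a normalized signal for 19550 genes, which equalled the counts divided by 42.6 for the CKO and 30.1 for the control library.

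Counts were scaled by TMM (edgeR 4.0.16, R 4.3.3), with DESeq2 1.42.0 size factors as an alternative. This gave effective sizes of 42.6 Mreads for the CKO and 30.1 Mreads for the control library. Ratios and exact intervals (Clopper-Pearson for ratios and shares, 95%) were computed in Python 3.11.15 with scipy 1.17.1 for genes with at least 1 CPM in either library. Log2 ratios use CPM + 0.5, and folds with intervals use the counts without it. The steps were tested on simulated counts.

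Start sites, strands and exon overlaps come from GENCODE vM21 (GRCm38, the assembly that mm10 names), coordinates and promoters from RefSeq (GRCm38.p6). Genes were named as the 10 lowest and 10 highest members, the 6 most and least abundant, the structural groups and the ends of each list. Partners, overlaps and single pairs were chosen after their values were seen. The members and lists were chosen with earlier results of these data known. One list of cell type markers is not reported here.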

Additional observations from a re-analysis of the deposited data

How the results depend on the processing

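The distance of the members' median from the median of all expressed genes was between -0.36 (no minimum) and -0.22 (minimum of 10 CPM) under every alternative tried, against -0.30 as reported, and 70 to 73 of 78 members lay below that median; this way of reading the ratios was chosen after seeing the data. The members' own median log2 ratio changed sign with total counts (0.018), TPM (0.11) and FPKM (0.0073), and was -0.10 with total counts without the 50 most abundant and mitochondrial genes. The number of members lower past the log2 limit of 0.32, 33 as reported, became 1 with total counts, TPM or FPKM and 7 without the most abundant genes. The number higher past it, 3 as reported, became 6 with total counts, 9 with TPM and 6 with FPKM, and 1 member passed 2-fold with TPM. Under these alternatives the median of all expressed genes was 0.21 to 0.40. Among the 74 genes named by rule, those past the limit whose log2 ratio changed sign with TPM were Mrpl42 (0.043), Mrpl45 (0.0071), Mrpl46 (0.080), Mrps21 (0.048), Mrps36 (0.027), Gadd45gip1 (0.016), Ptcd3 (0.028) and Esrra (0.024); so did Mrpl36 (0.046), Mrpl43 (0.086) and Mrps11 (0.072), named as partners of other genes. Of 666 values of the 74 genes under the alternatives, 393 stayed within the counting interval, 265 moved beyond it and 8 changed sign from past the limit. DESeq2 size factors, pseudocounts of 0.1 and 2 CPM, the authors' normalized table and a thinned CKO library gave 28 to 37 members lower past that limit, and the mean in place of the median was -0.28. No paired analysis was possible because each group has 1 library, and no replicate could be left out.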
